A study of Mus musculus with 4 samples.

Results

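Well-counted processed pseudogenes of the mouse uterus are described here: the rows of the deposited expression table that are typed as processed pseudogenes and have 500 or more counts in total over 4 libraries. These members were 163 of 840 processed pseudogenes, in a table of 19991 genes. They were thus chosen by their summed count, so their level is a description and not a finding. The 3 members nearest above the threshold were Gm11223, Gm13331 and Tpt1-ps6, with total counts of 500, 504 and 509, and the 3 rows nearest below it were Rpsa-ps12 (492), Nsa2-ps1 (484) and Rpl18-ps2 (484). Of the 163 members, 137 had at least 250 counts in each group. A further 13 stayed under 250 in the controls and 13 under 250 in the knockouts. A member that entered through 1 group had to differ, so the numbers of members that differ are given below as descriptions.

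Processed pseudogenes are copies of a messenger RNA that were reverse transcribed and inserted back into the genome, without introns, away from the gene they came from. That gene, called the parent here, keeps its introns and its own promoter. A copy usually has no promoter of its own, and it resembles the coding sequence of its parent, so a sequencing read from one can match the other. Genes that are transcribed at high level in the germ line, above all those of cytosolic ribosomal proteins, have left the most copies in mammalian genomes.

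RNA came from whole uterus of mice on gestational day 4. The control group was 2 wild-type samples. The knockout group was 2 samples of genotype Prss29Cre/Cre;Pgrf/f, in which both alleles of the gland protease gene Prss29 carry Cre recombinase and Pgr, the progesterone receptor gene, is floxed. Cre is thus made where Prss29 is transcribed. The groups therefore differ in Cre, in the Prss29 locus and in Pgr, and possibly in strain, which the labels do not give, and these cannot be told apart. Whether each sample came from its own animal is not in the labels, and the spread that the p-values rest on may therefore be technical.

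Library totals ran from 29932153 to 35149834 counts. Pgr had control counts of 4881 and 4865 and knockout counts of 4304 and 4102, and after scaling to library size the groups overlapped. Prss29 had control counts of 1524 and 190 and a count of 0 in both knockouts, which allows up to 0.0907 and 0.107 CPM, a count scaled to the size of its library. The uterine regulators Esr1, Hoxa10 and Hoxa11 were all above 240 CPM in every library. Other samples stood apart in ways that the groups do not explain. Control 2 was low in smooth muscle markers (Acta2 at 500 CPM against 1396 to 2406 in the other 3 libraries), and knockout 2 was high in the parents of the members, as given below. In whole tissue, fewer cells of a type and less RNA per cell cannot be told apart.

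Each member was matched to its parent by sequence in the GENCODE M21 transcripts of the mouse build GRCm38, and by symbol where the symbol names a gene, as Pcna-ps2 names Pcna. A protein-coding parent was found by sequence for 156 members, from 112 genes, and by symbol for 58, from 42 genes; of these 58 the 2 methods named the same parent for 56. The copies were close to their parents: the median identity was 99.4%, 101 members had 99% or more, 30 matched their parent without a difference over their whole length, and the lowest identity was 88.3% (Gm7162, a copy of Rangap1). Cytosolic ribosomal protein genes were the parents of 92 members, translation factors of 8, chaperone or proteasome genes of 7, chromatin and nuclear protein genes of 7, RNA-binding protein genes of 6 and cytoskeletal genes of 3. Members lay on 20 chromosomes, with a median length of 579 bases. In that annotation 19 overlapped an exon of another gene, 48 lay only within an intron and 96 overlapped no gene.

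The following stretches show parent coding sequence beside that of a copy. Within a stretch, reads can be told apart only where the letters differ, and bases outside it are not shown. Each was chosen among stretches of its length without gaps. A stretch in which every copy shown differs was preferred, and then the one with the most differences, summed where several copies are shown. The stretches therefore do not show the typical rate of difference, which the identities over the aligned length give. Capitals mark the bases of a copy that differ from its parent. The first set is Rplp0, which encodes the P0 protein of the ribosomal stalk, with its 3 copies among the members, over bases 211 to 310 of the Rplp0 coding sequence. Over the aligned length Gm8730 was 98.7% identical to Rplp0, Gm9625 97.4% and Gm6278 92.8%.
Rplp0: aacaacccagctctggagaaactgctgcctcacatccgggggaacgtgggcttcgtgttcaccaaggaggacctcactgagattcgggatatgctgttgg
Gm8730: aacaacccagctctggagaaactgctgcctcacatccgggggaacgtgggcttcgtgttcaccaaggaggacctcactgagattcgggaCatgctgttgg
Gm9625: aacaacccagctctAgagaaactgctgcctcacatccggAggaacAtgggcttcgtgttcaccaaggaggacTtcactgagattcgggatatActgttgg
Gm6278: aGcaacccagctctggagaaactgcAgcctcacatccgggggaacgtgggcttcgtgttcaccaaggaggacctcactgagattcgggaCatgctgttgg

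The next 3 sets are the other copies for which both knockouts exceeded 3 times the higher control after scaling. Psmb5 encodes a catalytic subunit of the proteasome, Pcna the sliding clamp of DNA replication, and Ncoa4 the receptor that takes ferritin to the lysosome. Gm3375 was 98.9% identical to Psmb5, Pcna-ps2 99.2% to Pcna, and Ncoa4-ps 99.9% to Ncoa4. They had 8, 6 and 2 mismatched bases over the aligned length.
Psmb5: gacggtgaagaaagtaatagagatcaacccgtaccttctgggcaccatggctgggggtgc
Gm3375: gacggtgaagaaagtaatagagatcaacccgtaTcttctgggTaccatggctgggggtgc
Pcna: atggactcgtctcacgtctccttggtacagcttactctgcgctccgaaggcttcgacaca
Pcna-ps2: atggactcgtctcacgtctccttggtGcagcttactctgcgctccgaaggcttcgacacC
Ncoa4: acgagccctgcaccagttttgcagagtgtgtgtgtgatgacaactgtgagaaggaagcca
Ncoa4-ps: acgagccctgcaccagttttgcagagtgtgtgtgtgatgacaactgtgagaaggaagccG

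Among the copies that were high in 1 knockout library, 2 are shown here, and their closeness to the parent is common among the members. Rpl34-ps1 and Rps13-ps1 differ from Rpl34 and Rps13, genes of the large and the small ribosomal subunit, by 2 mismatched bases each over the aligned length.
Rpl34: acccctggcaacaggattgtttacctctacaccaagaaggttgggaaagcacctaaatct
Rpl34-ps1: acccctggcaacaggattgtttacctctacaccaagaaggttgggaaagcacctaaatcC
Rps13: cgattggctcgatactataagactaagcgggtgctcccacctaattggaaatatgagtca
Rps13-ps1: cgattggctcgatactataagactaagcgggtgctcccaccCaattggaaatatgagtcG

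The shortest members show the other extreme. Gm10736 and Gm10180 are 78 bases long, equal to the whole coding sequence of Rpl41, a small protein of the large subunit, with no difference.
Gm10736: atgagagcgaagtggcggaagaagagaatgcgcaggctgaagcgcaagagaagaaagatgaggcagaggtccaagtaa

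Across the whole table the quasi-likelihood test of edgeR called 1 of 20950 genes at an adjusted p under 0.05, which is 0.00477% of the genes. All 163 members passed the low-count filter, and 0 were called. At an unadjusted p under 0.05, 9 members were higher in the knockouts, where the share over all genes was 1.22%, and 1 was lower, where it was 1.79%. DESeq2 called 6 members, all higher, against 90 of 22981 genes (0.392%) over the whole table, 44 of them higher (0.191%), and limma-voom called 0 members and 0% of all genes. The 2 libraries of a group lay wholly above those of the other in 29 members with the knockouts higher (17.8% of members, 12.2% of all genes) and in 19 with the knockouts lower (11.7% and 13.1%). These counts include the members that entered through 1 group, which had to differ, and nothing is read from their excess over all genes. Among the 137 members with at least 250 counts in each group, 3 were higher and 0 lower at an unadjusted p under 0.05, DESeq2 called 1 (Gm8730), and the groups were apart in 20 with the knockouts higher (14.6%) and 17 with them lower (12.4%). The median log2 fold change of the members, knockout over control, was −0.03, beside 0.01 over all tested genes. It was within 1 log2 unit in 151 members, ranging from −0.74 to 0.95, 1 or more in 11 and −1 or less in 1.

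Both knockouts exceeded 3 times the higher control in 6 members, where 0.296% of all tested genes did so, and in 1 of the 137 with at least 250 counts in each group. The 6 were Gm8730, Gm9625 and Gm6278 (copies of Rplp0), Gm3375 (Psmb5), Pcna-ps2 (Pcna) and Ncoa4-ps (Ncoa4). They are the 6 that DESeq2 called. All but Gm8730 had fewer than 250 counts in the controls and entered the list through the knockouts.

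Gm8730, on chromosome 8, was the member with the largest total, 35172 counts. It had 336 counts in control 1, 373 in control 2, 9495 in knockout 1 and 24968 in knockout 2. Both knockouts lay far above both controls, and knockout 2 was 3.1 times knockout 1 after scaling. The means were 10.2 ± 0.68 CPM in the controls and 588 ± 426 in the knockouts (SD, n = 2 each), and the log2 fold change was 5.86 (SE 0.61), with an edgeR adjusted p of 0.122 that did not pass the threshold.

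Gm9625, on chromosome 13, had control counts of 138 and 109 and knockout counts of 2610 and 7621. Gm6278, on chromosome 16, had 5 and 16, then 571 and 1787. In both, the groups were apart and knockout 2 was again the higher. Their log2 fold changes were 5.63 (SE 0.64, edgeR adjusted p = 0.141) and 7.06 (SE 0.86, adjusted p = 0.172). Because Gm6278 was at so few control counts, its pooled ratio is given too: 128-fold, with an interval from counting error alone of 83.7 to 208.

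The joint count of the 3 copies of Rplp0 was 479 in control 1, 498 in control 2, 12676 in knockout 1 and 34376 in knockout 2, and Gm8730 had most of it in every library. Gm8730 held 70.1% and 74.9% of it in controls 1 and 2, then 74.9% and 72.6% in knockouts 1 and 2. Gm9625 held 28.8% and 21.9%, then 20.6% and 22.2%. Gm6278, the least like Rplp0, held 1.04% and 3.21%, then 4.5% and 5.2%. The order of the copies was the same in all 4 libraries, and the part of Gm6278 was the most variable.

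Rplp0 itself had control counts of 70760 and 63534 and knockout counts of 47795 and 39574. Both knockouts were lower than both controls, with a log2 fold change of −0.43 (SE 0.32) that did not pass the test (edgeR adjusted p = 1). When the copies were added to it, the family had control counts of 71239 and 64032 and knockout counts of 60471 and 73950. The summed counts of the groups overlapped, and the log2 fold change became 0.20, with a 95% interval from −0.65 to 1.06. The copies made up 0.672% and 0.778% of the controls' family count, against 21% and 46.5% of that of the knockouts.

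**Figure D1:**
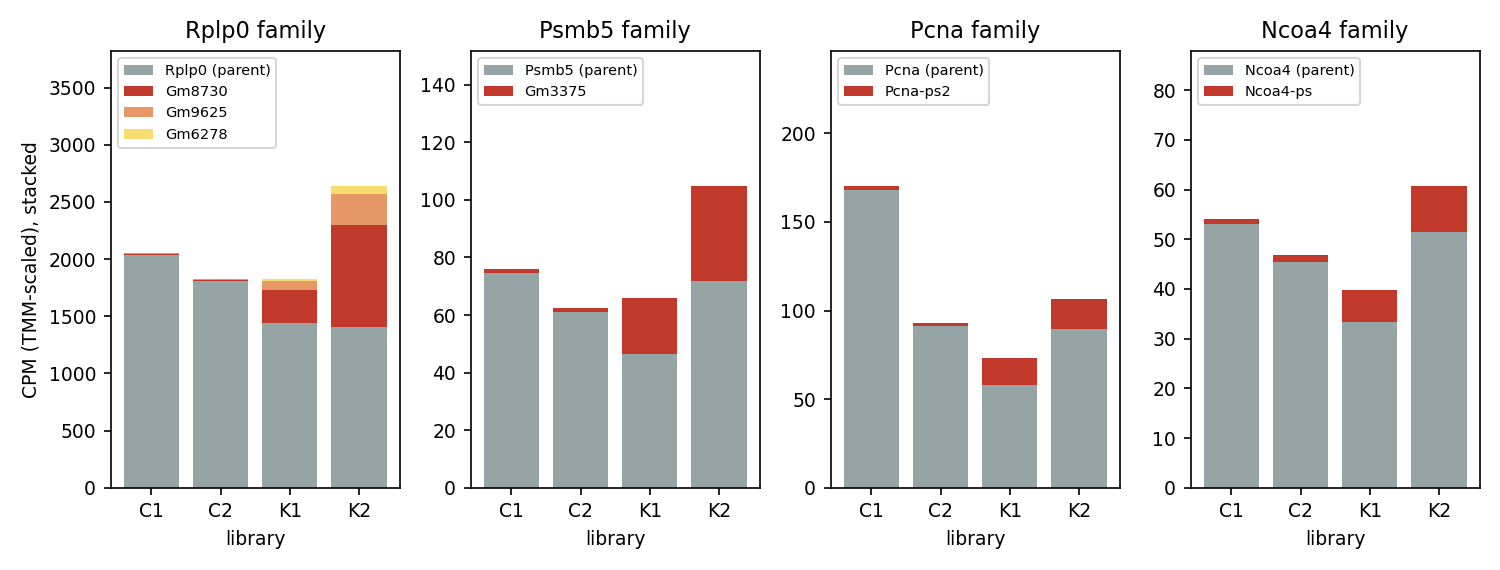
Stacked CPM of 4 parents (grey) and their copies (coloured) in each library, with C1 and C2 the controls and K1 and K2 the knockouts. The copies are a thin layer in the controls and a visible part of each family in both knockouts, up to 46.5% of the Rplp0 family in K2.

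Gm3375, on chromosome 7, had control counts of 50 and 52 and knockout counts of 645 and 924. Pcna-ps2, on chromosome 19, had 70 and 57, then 506 and 480. Ncoa4-ps, on chromosome 12, had 34 and 52, then 210 and 260. In each the groups were apart and the 2 knockouts were within 1.69 times of each other after scaling, unlike the Rplp0 copies. Gm3375 had the smallest p of any member, at a log2 fold change of 4.16 (SE 0.38) with an edgeR adjusted p of 0.0675. Pcna-ps2 followed at 3.15 (SE 0.34, edgeR adjusted p = 0.122), and Ncoa4-ps was at 2.66 (SE 0.44, adjusted p = 0.359). With DESeq2 the adjusted p-values of the 6 copies ran from 6.5e-33 (Gm8730) to 1.77e-05 (Ncoa4-ps), and with limma-voom from 0.0974 to 0.628.

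The parents of these 3 did not follow their copies. Psmb5 had control counts of 2591 and 2141 and knockout counts of 1540 and 2012, and Ncoa4 had 1844 and 1593, then 1106 and 1441. In CPM the groups overlapped for both of these parents. Pcna had control counts of 5836 and 3206 and knockout counts of 1925 and 2511, lower in both knockouts also in CPM, with a log2 fold change of −0.81 (SE 0.35) that did not pass the test. It was −0.29 without control 1 and −1.19 without control 2. The proliferation markers Mki67 and Top2a were likewise lower in the knockouts (78.8 ± 14.9 against 39.9 ± 15.1 CPM for Mki67, SD, n = 2 each), and their part in the Pcna values was not tested. The copy's share of copy plus parent was 1.89% and 2.37% in the controls against 29.5% and 31.5% in the knockouts for Psmb5, 1.19% and 1.75% against 20.8% and 16% for Pcna, and 1.81% and 3.16% against 16% and 15.3% for Ncoa4. Added to their copies, the families had log2 fold changes of 0.30 (SE 0.28), −0.55 (SE 0.34) and −0.01 (SE 0.26). In the fit in which every family was summed, 0 families were called by edgeR, where 1 of 20794 rows was (0.00481%).

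The tested genes nearest to these 6 copies had no difference of this size. In the GENCODE M21 order, the nearest tested genes on either side had log2 fold changes between −1.14 and 0.46, and 0 were called by edgeR. Ncoa4-ps lies between Itgb8 and Macc1, at 0.33 (SE 0.29) and 0.37 (SE 0.36). Gm3375 lies 107 kb from Myadm (−0.08, SE 0.28), Gm8730 79.2 kb from Cdh11 (−0.01, SE 0.26) and Gm6278 149 kb from Adamts1 (−0.06, SE 0.37). The genes on the far side of Gm8730 and Pcna-ps2 were 478 and 274 kb away, with 16 counts or fewer in each library. They could show little. No copy among the 6 is on chromosome 17, which carries Prss29, or on chromosome 9, which carries Pgr. Whether strain or the targeted loci bear on these copies was not tested.

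**Figure D2:**
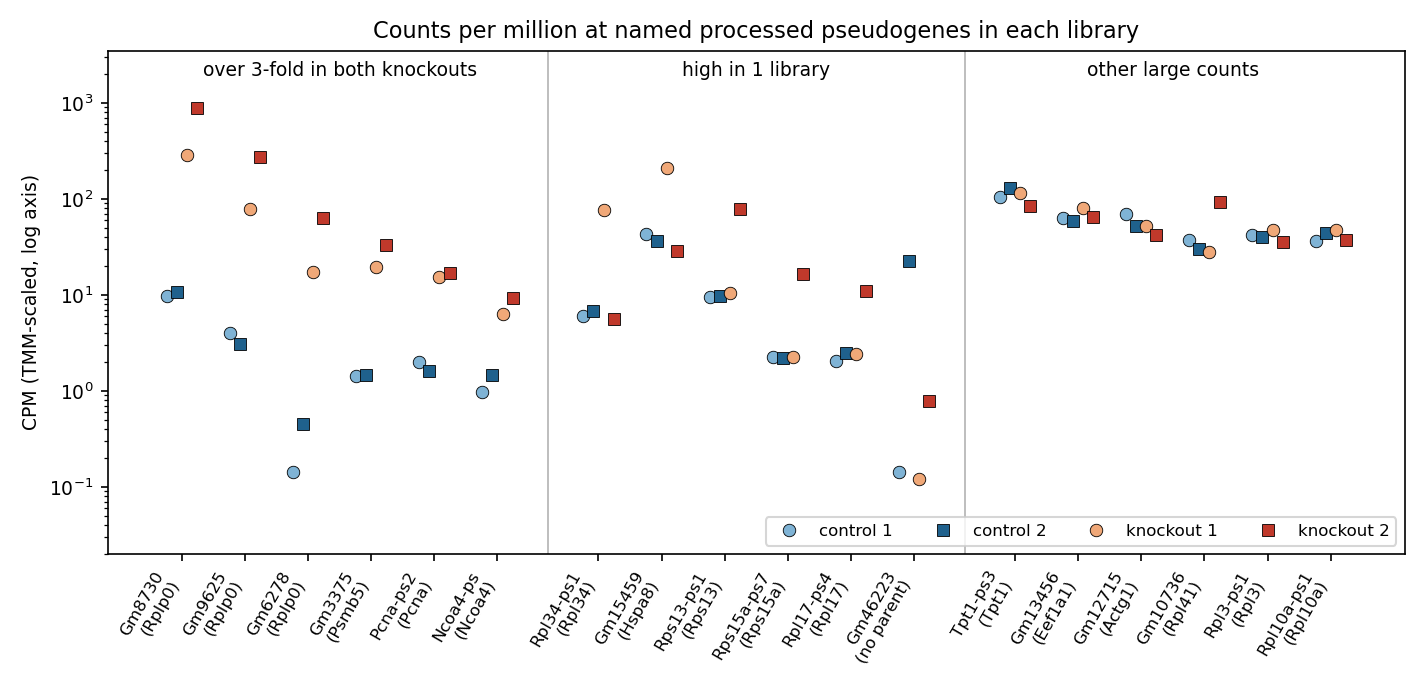
CPM of 18 members in each library on a log axis, with the parent under each symbol; blue symbols are controls and orange or red symbols knockouts. At left both knockouts lie above 3 times the higher control, in the middle 1 library lies above the other 3, and at right are 6 of the members with the largest counts.

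Other copies were high in 1 library only. Rpl34-ps1 had 212 and 240 counts in the controls, 2524 in knockout 1 and 158 in knockout 2, and Gm15459, a copy of the chaperone gene Hspa8, had 1501, 1272, 6971 and 805 in the same order. Knockout 1 was 13.5 and 7.3 times knockout 2 after scaling, and knockout 2 was below both controls. Without knockout 1 their log2 fold changes turned from 2.66 to −0.20 and from 1.59 to −0.47.

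In knockout 2 the high copies were different ones. Rps13-ps1 had 329 and 340 counts in the controls, 349 in knockout 1 and 2205 in knockout 2. Rps15a-ps7 had 79, 77, 74 and 463, and Rpl17-ps4 had 72, 88, 81 and 307, in the same order. In all 3, knockout 1 was at the control level, and knockout 2 was 7.5, 7.4 and 4.5 times knockout 1. The log2 fold change of Rps13-ps1 was 2.22, and 0.14 without knockout 2. That of Rps15a-ps7 was 2.06, and 0.01 without it.

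Gm46223, on chromosome 10, has no parent by sequence, and had 5 counts in control 1, 786 in control 2, 4 in knockout 1 and 22 in knockout 2. It was high in control 2 alone, and without that library its log2 fold change turned from −4.66 to 1.61. It was the only member at −1 or less.

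Counted over all 163 members, knockout 1 exceeded 3 times the higher control in 8, where 0.487% of all genes did so. Knockout 2 did so in 9, where 0.697% of all genes did. The 6 copies above are in both sets, which leaves 2 for knockout 1 and 3 for knockout 2, the 5 just described. A member that entered the list through 1 group or library had to be high there, so nothing is read from an excess over all genes. The 2 knockouts differed by more than 3 times in 13 of 163 members (8 with knockout 2 higher), where 6.58% of all genes did so. The 2 controls did in 2 of 163, where 5.51% of all genes did. These counts include members that entered through 1 library, and they are descriptions only.

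Taken over all pairs, copies and parents went apart in 1 library. The plot of library deviations gives log2(CPM + 0.1) minus each gene's mean over the 4 libraries. The median over the 112 parents was −0.07, −0.21 and −0.14 in control 1, control 2 and knockout 1, and 0.40 in knockout 2. Over the 163 members it was −0.02, 0.03 and 0.09, and −0.15 in knockout 2. The parents' median was thus high in knockout 2 alone, and that of the members lay below 0 there. Over all tested genes the medians were within 0.02 of 0 in every library.

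**Figure D3:**
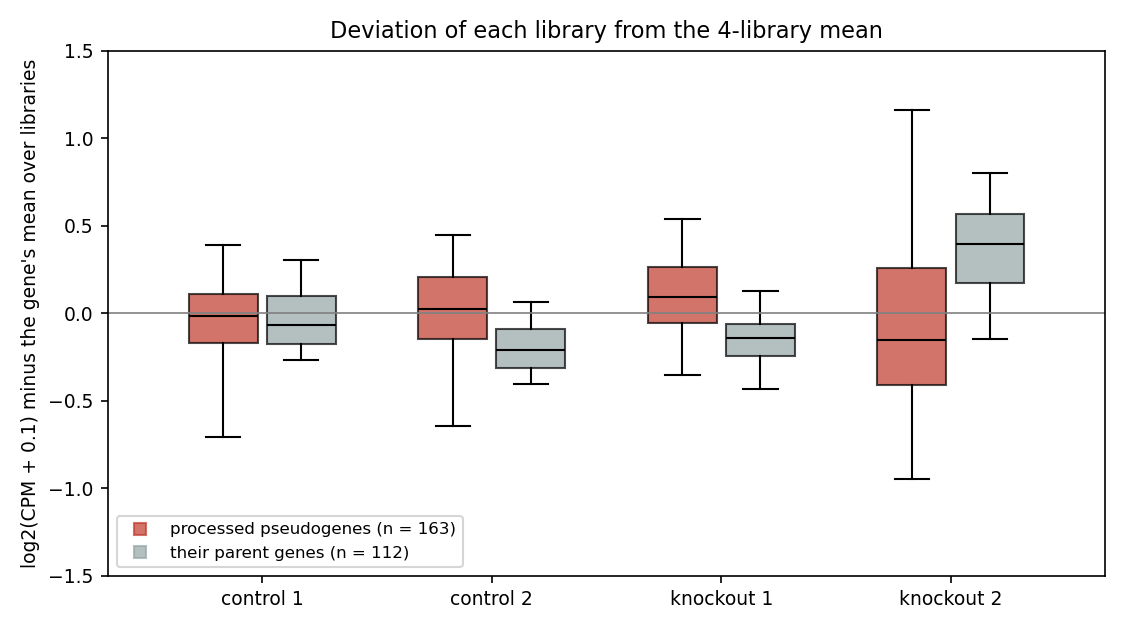
Box plots of log2(CPM + 0.1) minus the gene's mean over 4 libraries, for 163 processed pseudogenes (red) and 112 parents (grey); boxes are quartiles, whiskers the 5th to 95th percentile, and points beyond them are not drawn. In knockout 2 the parents' median is 0.40 and that of the pseudogenes −0.15.

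The 57 ribosomal protein parents were the largest group in this. In 56 of them the log2 fold change was above 0, with a median of 0.42, and Rplp0 was the 1 below. Of them 0 were called by edgeR, and knockout 2 was the highest library in 52. The 92 copies of ribosomal protein genes had a median of −0.01, with 43 above 0 and 49 below, and knockout 2 was the lowest library in 53. Over all 112 parents the median was 0.30, with 87 above 0 and 25 below, 0 called, and without knockout 2 it was −0.01. In 72 of 156 pairs the parent was above 0 and the copy below, and in 12 the reverse. Across pairs, Pearson's r between the log2 fold changes was −0.29 and Spearman's rho 0.24, a description only, since pairs share libraries and parents. The coefficients differ in sign. They include the 6 copies high in both knockouts, whose parents are below 0, and all but Gm8730 of these entered through the knockouts.

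**Figure D4:**
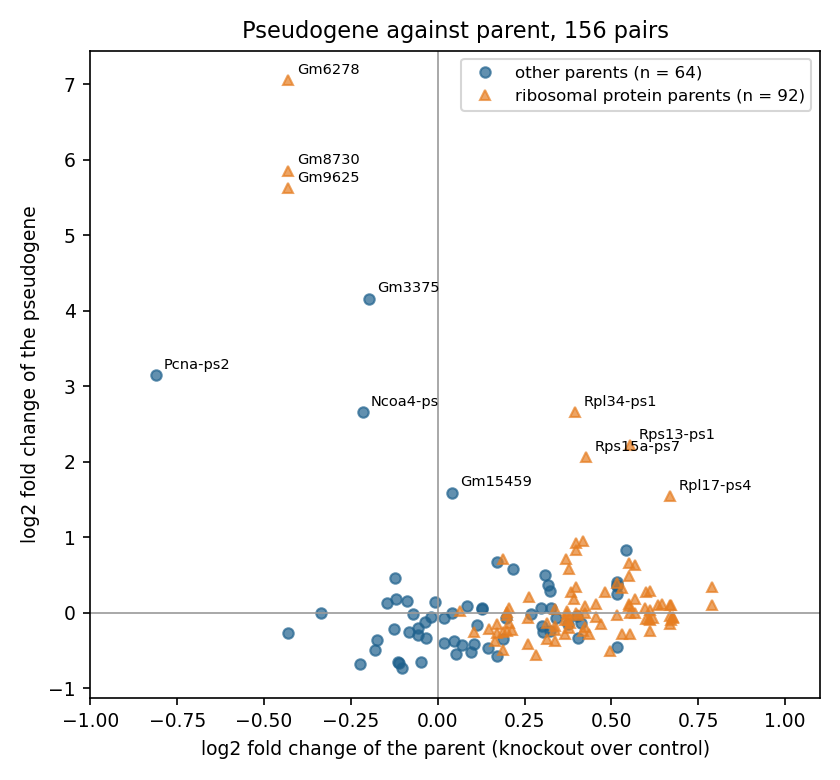
Log2 fold change (knockout over control) of each processed pseudogene against that of its parent, 156 pairs. Most points lie to the right of 0 and near 0 in height, and the 6 copies above 3 times the higher control in both knockouts are at upper left, where the parent is below 0.

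The share of a pair's counts that fell on the pseudogene sets copy against parent within a library. It falls when the parent rises, also where the copy does not change. Its median over the 156 pairs was 1.5% and 1.77% in the controls, 1.74% in knockout 1 and 0.939% in knockout 2. It was lowest in knockout 2 in 121 pairs and highest there in 23. Relative to the mean of the controls, the share in knockout 1 was within 1.5 times in 147 pairs and above that in 9. In knockout 2 it was within 1.5 times in 44, above in 16 and below in 96. Control 2 was within 1.5 times of control 1 in 149. So the share of most pairs was close in 3 libraries and differed in knockout 2. It was lowest there in 75 of 92 ribosomal pairs and in 46 of 64 others. The parents' median level was also highest in that library. A higher parent level and another division of reads cannot be told apart by the share. The cause was not tested.

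**Figure D5:**
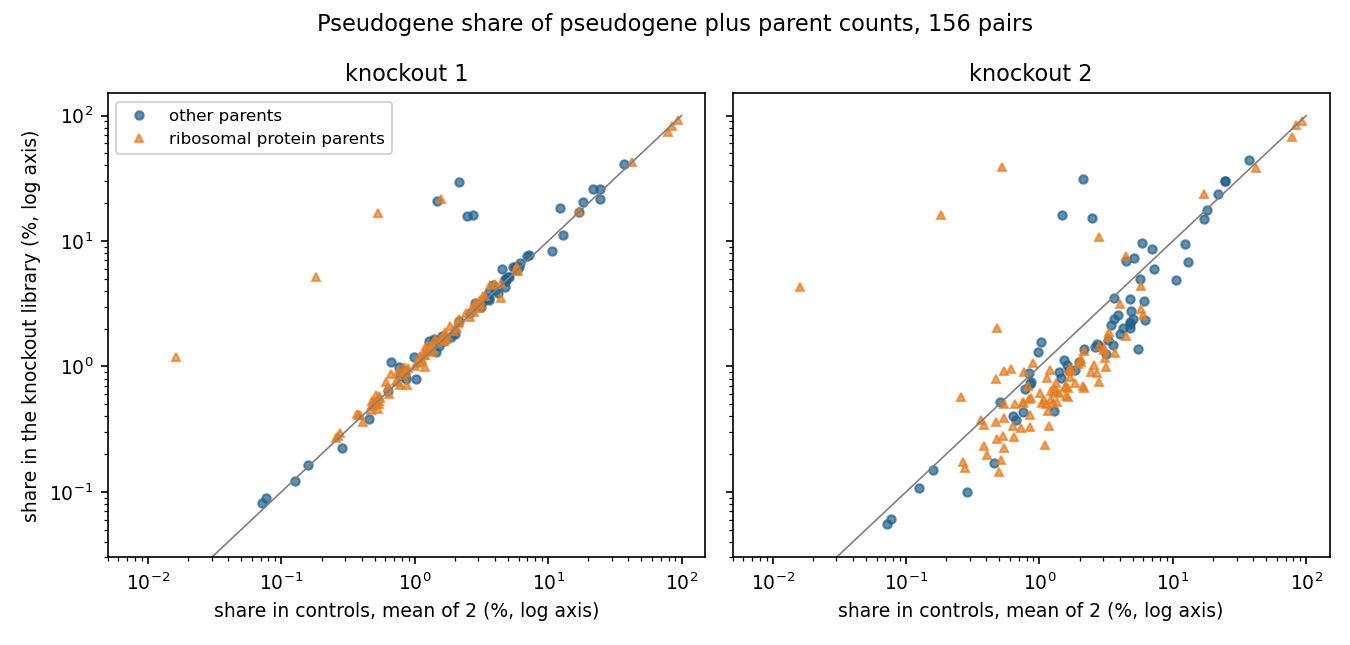
Share of a pair's counts that fell on the pseudogene in knockout 1 (left) and knockout 2 (right) against the mean of the 2 controls, 156 pairs, log axes; the line marks equal shares. In knockout 1, 147 points lie within 1.5 times of the line, whereas in knockout 2, 96 lie below that range and 16 above it.

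The pairs named by symbol with the largest counts show the same pattern of shares. Tpt1-ps3, an exact copy of Tpt1, which encodes the translationally controlled tumour protein, was at 106, 129, 114 and 84.4 CPM in control 1, control 2, knockout 1 and knockout 2. Its share of the pair was 4.52%, 5.53% and 5.12% in the first 3 libraries, and 2.39% in knockout 2 (95% exact interval 2.29 to 2.48, counting error only). Tpt1 itself was at 2242, 2206, 2118 and 3452 CPM. Knockout 2 was the highest library for the parent and the lowest for the copy, and the groups overlapped in both.

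Among the ribosomal pairs, Rpl3-ps1 held 2.76%, 3.33%, 3.13% and 1.40% of its pair in that order. Rpl10a-ps1 held 5.18%, 6.37%, 6.11% and 2.88%, and Rps16-ps2 held 5.42%, 6.46%, 5.74% and 2.57%. Each was lowest in knockout 2 with the other 3 libraries close together. Rps6-ps4 went from 4.04%, 4.87% and 4.59% to 1.75%, and Oaz1-ps, a copy of the gene of ornithine decarboxylase antizyme, from 5.94%, 6.21% and 6.20% to 3.33%. Of the 12 largest pairs, 11 were lowest in knockout 2, and the exception was Rps13-ps1, at 2.63%, 2.99%, 3.18% and 10.7%. Rpl34-ps1 was at 1.37%, 1.77%, 21.6% and 0.697%. In the other 46 pairs by symbol the mean share ran from 0.0759% to 41.3%, and 37 were lowest in knockout 2. Across the 58 pairs the groups were apart with the share lower in the knockouts in 6 and higher in 5, but 2 samples against 2 cannot give an exact two-sided permutation p below 0.3333, and 0 pairs passed.

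Other members with large counts include copies of abundant transcripts. Gm13456, a copy of Eef1a1, which encodes the elongation factor that brings aminoacyl-tRNA to the ribosome, was at 63.3, 58.9, 80.1 and 65.4 CPM. Both knockouts were above both controls, by a small margin. Gm10736, the 78-base copy of Rpl41, had the highest level per length of any member, with 1524, 1250, 1182 and 3397 TPM, a measure that divides by gene length. Only knockout 2 was high in it, and the reads, of 150 bases, are longer than this gene. In TPM the median over the members was 48.0 and that over their parents 602.

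In 0 members did both knockouts lie more than 3 times below both controls, where 0.291% of all tested genes did so. The 6 with the smallest p among the 19 whose knockouts were both lower were Eif4a-ps4, Gm6548, Gm10052, Vcp-rs, Gm12715 and Ube2n-ps1. They are copies of Eif4a1 (a translation initiation helicase), Eef1a1, Hnrnpa1 (a splicing regulator), Vcp (an unfolding ATPase), Actg1 (cytoplasmic gamma actin) and Ube2n (a ubiquitin-conjugating enzyme). Eif4a-ps4 had control counts of 1222 and 868 and knockout counts of 739 and 529, with a log2 fold change of −0.54 (SE 0.27). Gm10052 had 1048 and 862, then 792 and 293, at −0.67 (SE 0.41). Knockout 2 was the lowest library in all 6. Their log2 fold changes ran from −0.68 (Vcp-rs) to −0.40 (Gm12715), and all had an edgeR adjusted p of 1. Single libraries moved 4 of them by over 1.5 times. Without control 1, Eif4a-ps4 was at −0.25 and Gm12715 at −0.16, and without control 2 Gm12715 was at −0.59. Without knockout 2, Gm10052 was at −0.19, Vcp-rs at −0.28 and Gm12715 at −0.25, and without knockout 1 Gm10052 was at −1.39 and Vcp-rs at −1.25. Their parents were between −0.23 (Vcp) and 0.52 (Eef1a1).

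The parent held most of a pair's counts in 153 of 156 pairs. The exceptions were Gm9385 and Gm12254, copies of Rpl24, and Rpl36a-ps3, whose closest transcript by sequence is Rpl36al although its symbol names Rpl36a. Rpl24 had control counts of 40 and 46 and knockout counts of 48 and 39, while Gm9385 had 638, 572, 597 and 377. These parent rows were low: Rpl24 was at 3.58 to 4.66 TPM, where the median over the parents was 602, and Rpl36al had 42 to 59 counts. Of the 472 bases of Gm9385, 162 also lie opposite an exon of Gadl1. How reads were assigned among these rows was not tested. Both copies of Rpl24 were above it in every library. Copies identical to their parent over their length had a median share of 3.07% (30 pairs) and those with differences 1.33% (126 pairs).

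Some members share their bases with a gene on the opposite strand, and whether counting used strand is not given. Rps23-ps1 had 664, 706, 658 and 479 counts, and Gm5148, which overlaps it, 701, 756, 686 and 501. Rps23-ps2 had 217, 287, 246 and 283, and C330021F23Rik, which overlaps it, 220, 295, 248 and 281. In both pairs the 2 rows are nearly equal in every library, so they cannot be told apart here. Gm5831, the member with the largest count among the 7 without a parent, lies wholly opposite an exon of Arhgef12, with 1405, 1261, 1223 and 867 counts.

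The members' share of all counts was 0.199% for control 1, 0.216% for control 2, 0.286% for knockout 1 and 0.297% for knockout 2. Both knockouts were higher, by 0.0841 percentage points on average (exact permutation p = 0.3333, two-sided, the smallest that 2 against 2 allow). The 3 copies of Rplp0 were most of this. Without them the shares were 0.198%, 0.214%, 0.246% and 0.182%, and the groups overlapped. The difference was then 0.00824 points (exact permutation p = 1). Members that entered the list through 1 group, such as Gm9625 and Gm6278 through the knockouts, shift these sums by selection. The differences are thus descriptions, and nothing is read from their tests.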

How the data were processed

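RNA of whole uterus was sequenced with paired reads of 150 bases, and bcl2fastq 2.17 made the read files of 4 libraries, per the series' design text. Trimming used Trimmomatic, alignment STAR on GRCm39, and counting featureCounts, per the submitters' processing notes. Their versions, the strand setting and the treatment of reads with several matches are not stated in these sources, so the division of reads between near-identical copies is uncertain. The authors deposited whole-number counts for 57186 genes and, for 19991 of them, counts with TPM, symbols and gene types.

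The deposited counts were tested with edgeR 4.0.16 in R 4.3.3 (quasi-likelihood F-test, TMM, filterByExpr at its defaults with minimum count 10 and minimum total 15), group being the only term. P-values were adjusted by Benjamini-Hochberg over 20950 genes, with a threshold of 0.05. The biological coefficient of variation was 0.309. CPM are TMM-scaled. The procedure was tested on simulated data. DESeq2 1.42.0 and limma 3.58.1 were alternatives, with log2(TPM + 1) of the deposited TPM among them. No 2 libraries were close to sampling noise (lowest chi-square per degree of freedom 30.3).

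Parents by sequence were the protein-coding GENCODE M21 transcripts (GRCm38) closest to each member by blastn of BLAST+ 2.17.0, with at least 80% of the member aligned at 85% identity, on the sense strand and outside the member's own locus. Gene IDs of all 163 members matched that annotation and 160 had the deposited length. No coordinates are given, since the files use GRCm39. Shares have exact binomial intervals. Intervals and floors (3 counts) cover counting error only, since reads without molecular identifiers are not independent molecules.

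Named genes are the 12 members with the largest counts, up to 6 per direction with the smallest p among those whose groups do not overlap, pairs named by symbol, the members around the threshold and the 5 with the largest ratio within a group. Other genes were named after their values were seen. The members and lists were chosen with earlier results of these data known. One result among the members with large counts is not reported here.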

Additional observations from a re-analysis of the deposited data

How the results depend on the processing

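The number of genes called over the whole table was 1 with edgeR, 90 with DESeq2, 0 with limma-voom, 54 with no low-count filter and 0 with a stricter one (at least 50 counts). With 1 library left out it was 16 to 49. The number of members called was 0 with edgeR and with RLE, upper-quartile and protein-coding TMM factors, limma-voom and the stricter filter, 6 with DESeq2 and 6 with no filter (in both, the 6 copies above 3 times the higher control in both knockouts), and 1 with limma on log2(TPM + 1), which was Gm3375. With 1 library left out it was 5 to 7: Gm3375, Gm6278, Gm8730, Gm9625 and Pcna-ps2 each time, with Rps13-ps1 and Rps15a-ps7 added without knockout 1, Gm15459 and Rpl34-ps1 without knockout 2, and Gm46223 without control 1. In such fits the lone sample is assumed to vary like the other group. With the replicate number as a block the counts were 32 genes and 5 members. The numbers do not pair the samples in the labels, and with 2 pairs the correlation of deviations was −0.48. With the numbers crossed, chosen after seeing the data, 37 genes and 5 members were called.

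Of the 42 parents named by symbol and their family sums, 0 were called under these alternatives other than limma on log2(TPM + 1), which was run for members only. The parents by sequence were tested with the main settings, where 0 were called. The number of symbol pairs whose share was lower in every knockout library than in every control was 6. With 1 library left out it was 7 to 48, with 29 of 58 without control 1 and 48 without knockout 1. Leaving out a library cannot lower this count, so nothing is read from its rise. The difference in the members' summed share was 0.0841 points, 0.0286 without Gm8730 and 0.00824 without the Rplp0 copies, the last chosen after seeing the data. With 1 library left out it ran from 0.0758 to 0.0924. Some log2 fold changes turned. Without knockout 1, Rpl34-ps1 was at −0.20, Gm15459 at −0.47, Psmb5 at 0.082 and Ncoa4 at 0.062. Without knockout 2, Rpl34 was at −0.56, Rps13 at −0.047, Rps15a at −0.037 and Hspa8 at −0.39. Without control 2, Gm46223 was at 1.61 and Hspa8 at −0.18. With 1 library left out the extremes at the other end were −6.49 for Gm46223, 3.56 for Rpl34-ps1, 2.41 for Gm15459, −0.54 for Psmb5, −0.56 for Ncoa4, 0.97 for Rpl34, 0.98 for Rps13, 0.37 for Hspa8 and 0.78 for Rps15a. The cause was not tested. No scaling moved the median of all genes by 0.1. Depth limits Gm6278 in the controls, at 5 and 16 counts.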
